A study of Mus musculus with 2 samples.

Results

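The 7 granzyme genes Gzma to Gzmg were examined together with Prf1, Srgn and Klrd1, genes tied to the cytotoxic granules and surface of uterine natural killer (NK) cells. Every probe set annotated to at least 1 of these 10 genes was taken, which gave 10 of 13319 annotated genes and 13 of the 22626 probe sets that are not array controls. Each gene had at least 1 probe set, and 1 probe set was shared between Gzme and Gzmd. The samples were total RNA from uterus of 4-month-old female mice on day 8 of pregnancy, dissected between implantation sites, where no embryo is attached, on a mixed C57Bl/6J and OLA129 background. The groups were Cbs null females, homozygous for loss of cystathionine beta-synthase, and control females, whose exact Cbs genotype the labels do not state. Each group was represented by 1 Affymetrix array, and whether a sample came from 1 mouse or a pool is not stated. With 1 array per group there is no replicate check, so no test or p-value is given and every difference is one between these 2 samples.

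Uterine NK cells are the most abundant leukocytes of the early mouse decidua. They arise from precursors under the cytokine interleukin-15 and fill with granules that hold perforin, which makes pores, and granzymes, serine proteases that enter target cells through them. The proteoglycan serglycin packs these proteins inside the granule. In the mouse, granzyme A is encoded on chromosome 13, whereas the granzyme B gene lies on chromosome 14 beside a row of rodent granzyme copies, Gzmc to Gzmg and Gzmn. Of these, Gzmc to Gzmg are known from pregnant uterus and from activated lymphocytes.

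The deposited signals of both arrays were on one scale, with medians of 75.6 in the Cbs null sample and 74.55 in the control sample. Dim signals cannot be ordered reliably, so a floor was set at 43.0, the signal that 40% of values on the pooled arrays do not exceed, and a probe set above it on at least 1 array was called measured. Where a value lay beneath the floor the fold is only a bound, written as "at least". Cbs read 42.6 in the Cbs null sample and 79.8 in the control sample in its brighter probe set, in the direction of the genotype labels. Of 13 markers of the uterine wall measured, none differed by 2-fold, with Acta2 of smooth muscle at 9373 and 9826 and Myh11 at 3645 and 4495 in the Cbs null and control samples. The muscle markers Acta2, Myh11 and Des had log2 ratios of Cbs null over control of -0.07, -0.30 and -0.68, whereas the 6 epithelial markers Krt8, Krt18, Krt19, Epcam, Cdh1 and Foxa2 were between 0.29 and 0.90, and the part of this in the results that follow was not tested.

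In the Cbs null sample all 9 granzyme probe sets lay beneath the floor, whereas in the control sample all 9 stood above it. Their signals ran from 0.5 to 39.7 in the Cbs null sample, against 113 to 456 in the control sample, so the ranges did not overlap. In the Cbs null sample each was lower by 2-fold or more, and 7 by 4-fold or more. Among all 14061 measured probe sets, 0.704% were lower by 2-fold or more, 0.654% were higher by that much and 0.164% were lower by 4-fold or more. The granzymes counted as measured only through the control sample, so that their direction, though not their size, was fixed by that filter. The 4 probe sets of Prf1, Srgn and Klrd1 did not reach 2-fold, and 1 of the 13 probe sets, of Prf1, was not above the floor in either sample.

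**Figure D1:**
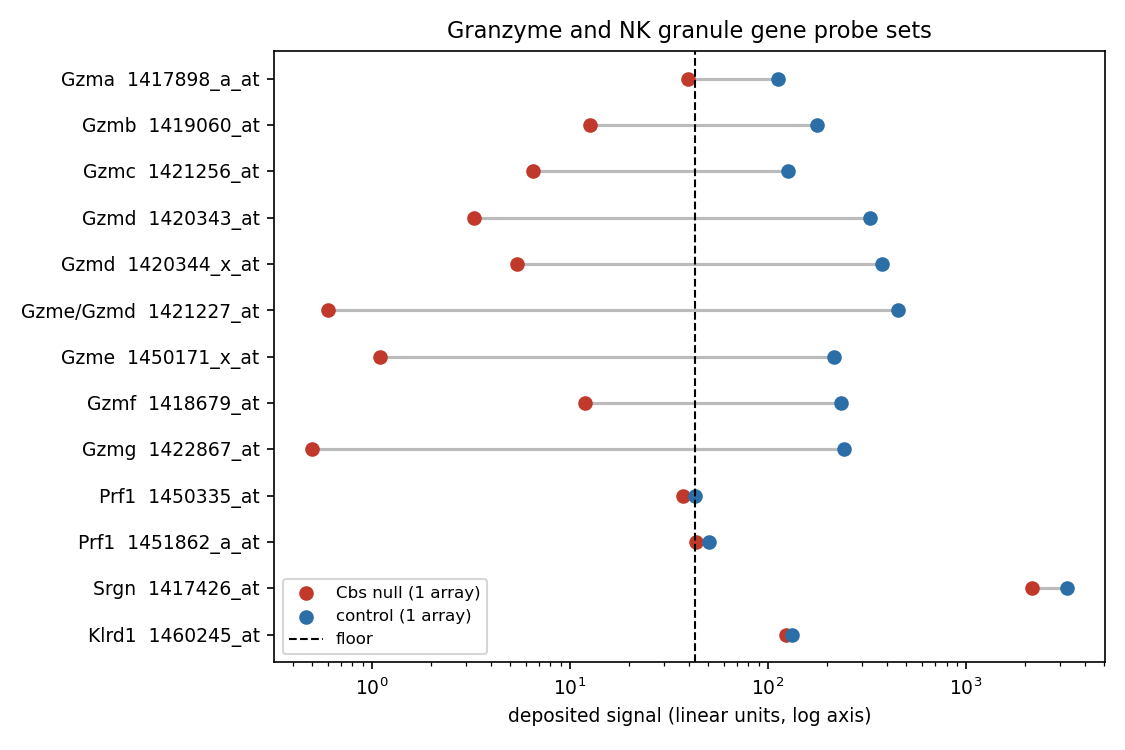
Deposited signal (log axis, linear units) of each of the 13 probe sets in the Cbs null sample (red) and the control sample (blue), 1 array each, with the floor at 43.0 as a dashed line. All 9 granzyme probe sets lie left of the floor in the Cbs null sample and right of it in the control sample, while Prf1, Srgn and Klrd1 have both points close together.

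Granzyme D, a mouse protease of the chromosome 14 row, was covered by 3 probe sets, all lower in the Cbs null sample. Its first probe set (1420343_at) read 3.3 in the Cbs null sample and 329.9 in the control sample, at least 7.67-fold lower. A second (1420344_x_at, whose suffix marks probes that may bind other transcripts) read 5.4 in the Cbs null sample and 378 in the control sample, at least 8.79-fold lower. The probe set shared by Gzme and Gzmd (1421227_at) read 0.6 in the Cbs null sample and 456 in the control sample, at least 10.6-fold lower. The 3 probe sets that can report Gzmd thus spanned 329.9 to 456 in the control sample and were all beneath the floor in the Cbs null sample.

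Gzme, the nearest copy of Gzmd, read 1.1 in the Cbs null sample and 217 in the control sample in its own probe set (1450171_x_at), at least 5.05-fold lower. That probe set has the suffix of probes that may bind other transcripts, and the other probe set of Gzme is shared with Gzmd. Neither value can therefore be given to Gzme alone. Gzmf (1418679_at) read 12 in the Cbs null sample and 236 in the control sample, at least 5.49-fold lower. Gzmg (1422867_at) read 0.5 in the Cbs null sample and 243 in the control sample, at least 5.66-fold lower. These bounds follow the control signal, since the floor stands in for every Cbs null value, and their order is that of control brightness and not of the size of change. In the control sample the 6 probe sets of Gzmd to Gzmg stood between the 73.4th and the 86.6th percentile of all signals on the array. Different probe sets differ in sensitivity, so their signals do not rank the genes by transcript number.

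The remaining granzymes, Gzmc, Gzmb and Gzma, had 1 probe set each. Gzmc, next to Gzmb on the chromosome, read 6.5 in the Cbs null sample and 126 in the control sample (1421256_at), at least 2.93-fold lower. Gzmb, the caspase-activating granzyme that triggers apoptosis of target cells, read 12.6 in the Cbs null sample and 178 in the control sample (1419060_at), at least 4.13-fold lower. Gzma, a tryptase that cuts after lysine and arginine, read 39.7 in the Cbs null sample and 113 in the control sample (1417898_a_at), at least 2.63-fold lower. The Gzma value in the Cbs null sample was 0.923 of the floor, so it lay only just under the floor.

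Prf1, which encodes the pore-forming perforin, gave signals close to the floor in both samples. One probe set (1451862_a_at) read 43.5 in the Cbs null sample and 50.6 in the control sample, a log2 ratio of Cbs null over control of -0.22. The other (1450335_at) read 37.2 in the Cbs null sample and 43 in the control sample, not above the floor in either. So weak a control signal could not have shown a 2-fold fall.

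Srgn, the serglycin gene, read 2153 in the Cbs null sample and 3247 in the control sample, 1.51-fold lower (log2 ratio -0.59). Many leukocytes and endothelial cells also make serglycin. Klrd1 encodes CD94, the surface partner of the NKG2 receptors on NK cells, and read 123 in the Cbs null sample and 133 in the control sample, 1.08-fold lower (log2 ratio -0.11). Its control signal was bright enough to have shown a 2-fold fall. The spread between paired probe sets of 2764 genes put the technical SD of 1 log2 ratio at 0.22, a measure within these arrays that leaves out variation between mice. The Klrd1 and Prf1 ratios were within about that size, and the Srgn ratio was 2.75 times it. This SD came only from probe sets above the floor in both samples, so it does not describe the granzyme bounds.

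**Figure D2:**
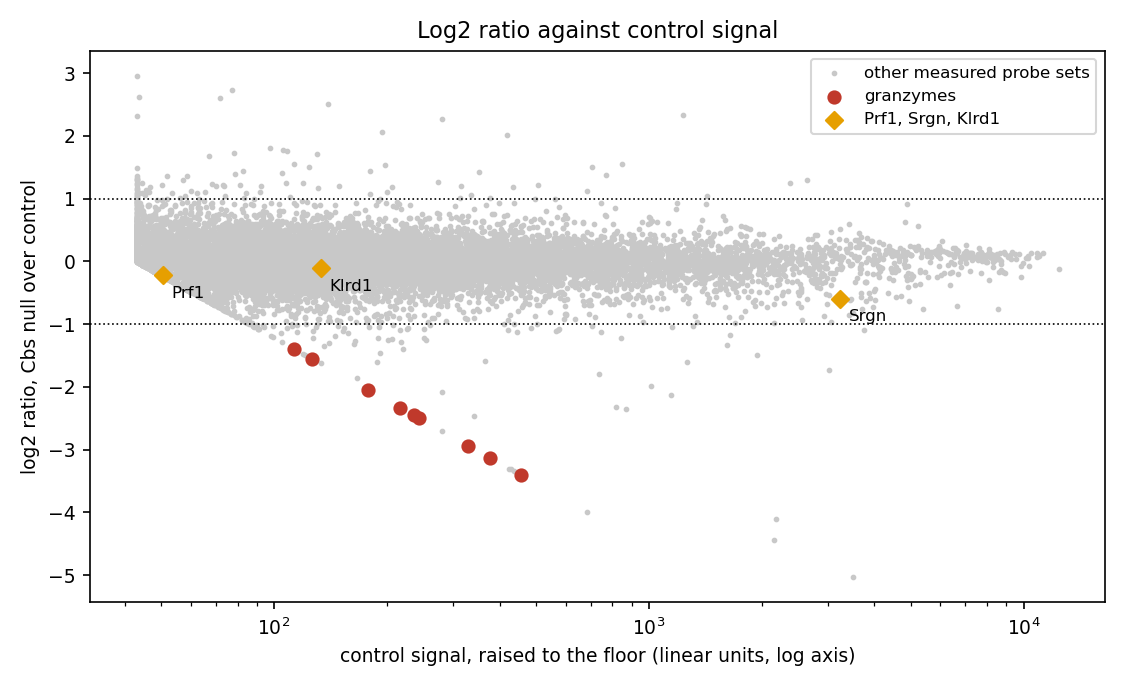
Log2 ratio of Cbs null over control (vertical) against control signal raised to the floor (horizontal, log axis) for the 14061 measured probe sets, with granzymes in red and Prf1, Srgn and Klrd1 as orange diamonds. Dotted lines mark 2-fold. The 9 granzyme points fall on the slanted line that holds every probe set whose Cbs null value was raised to the floor.

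Few probe sets of like brightness behaved this way. Of 6278 probe sets whose control signal lay in the range of the granzymes, 113 to 456, 19 were under the floor in the Cbs null sample (0.303%), and 9 of those 19 were the granzymes. That range was taken from the granzymes themselves. Of 7192 probe sets with a control signal of at least 4 times the floor, 0.209% were under the floor in the Cbs null sample. Counted by gene, with the brightest probe set of each, 11 genes had that pattern, of which 5 were Gzmb, Gzmd, Gzme, Gzmf and Gzmg.

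The 6 other genes with that pattern included markers of decidual cells. Tdo2, the tryptophan-degrading dioxygenase of decidual cells, read 27.4 in the Cbs null sample and 685 in the control sample. Prl8a2, a decidual prolactin-family hormone, read 5.8 in the Cbs null sample and 424 in the control sample. Mt4, a metallothionein, read 0.4 and 438, and Igfbp2, which binds insulin-like growth factors, read 26.3 and 428, in the Cbs null and control samples. Itgbl1, an integrin beta-like protein, read 13.8 in the Cbs null sample and 245 in the control sample, and Thbs4, the matrix glycoprotein thrombospondin 4, 10.2 and 174. Likeness here rests on 2 arrays and means only a bright control signal with a Cbs null signal below the floor.

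Of the 7 granzymes, 6 lie in 1 row on a single chromosome. Along chromosome 14 the RefSeq order is Gzme, Gzmd, Gzmg, Gzmn, Gzmf, Gzmc and Gzmb. Gzmn, inside the row, was below the floor in both samples, at 1.2 in the Cbs null sample and 3.2 in the control sample. The other protease genes next to Gzme that the array covered, namely Mcpt1, Mcpt2, Mcpt4, Mcpt8 and Ctsg, were also below the floor in both. The highest was Mcpt4, at 27.2 in the Cbs null sample. Atp12a, a proton pump gene beyond Gzmb, read 180.3 in the Cbs null sample and 290.2 in the control sample, a log2 ratio of -0.69, and Parp4, further on the same side, 111 and 86.5, a log2 ratio of 0.36. Gzmk, beside Gzma on chromosome 13, and Gzmm, on chromosome 10, were under the floor in both samples.

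**Figure D3:**
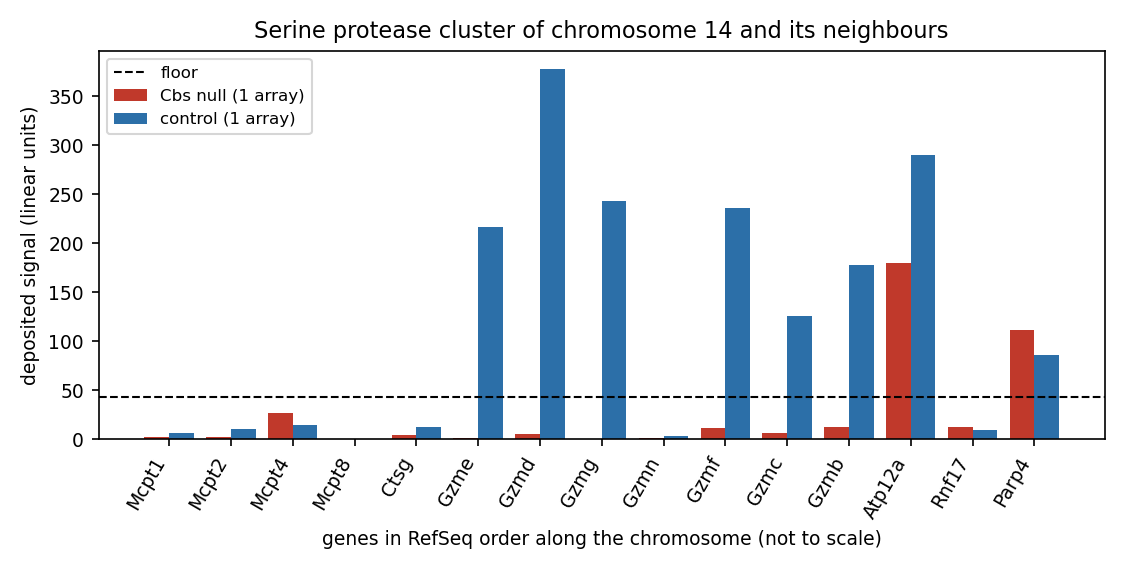
Deposited signal (linear axis) of the granzyme row of chromosome 14 and its neighbours in RefSeq gene order, with the Cbs null sample as red bars left of the control sample as blue bars and the floor at 43.0 as a dashed line. Control bars stand above the floor for 6 granzymes from Gzme to Gzmb with a gap at Gzmn, while the Cbs null bars of all 7 lie below it.

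The start regions of Gzmc to Gzmg are near copies of each other, which is shown here because those 5 genes were lower together. Transcript and probe sequences were not compared, so whether the probe sets of these genes detect one another's transcripts was not tested. RefSeq promoter windows (build GRCm38.p6, 250 bases before to 50 after the annotated start) matched 9 of the 10 genes, and Klrd1 had none. Each sequence below is 150 bases of the sense strand, aligned without gaps, from Gzmc chr14:56234638-56234787, Gzmd chr14:56132578-56132727, Gzme chr14:56120611-56120760, Gzmf chr14:56211413-56211562 and Gzmg chr14:56159580-56159729, all on the minus strand. Capitals mark TGTGGT, a Runx factor motif, and TGACGTCA, the cAMP response element.
Gzmc: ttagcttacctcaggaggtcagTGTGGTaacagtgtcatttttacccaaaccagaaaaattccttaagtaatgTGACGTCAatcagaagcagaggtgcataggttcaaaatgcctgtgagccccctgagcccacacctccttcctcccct
Gzmd: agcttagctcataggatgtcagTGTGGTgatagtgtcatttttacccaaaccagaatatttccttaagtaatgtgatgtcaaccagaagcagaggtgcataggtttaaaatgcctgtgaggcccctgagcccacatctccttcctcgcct
Gzme: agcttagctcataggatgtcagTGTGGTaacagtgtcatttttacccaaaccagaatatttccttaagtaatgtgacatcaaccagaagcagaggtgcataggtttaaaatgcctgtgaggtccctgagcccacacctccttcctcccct
Gzmf: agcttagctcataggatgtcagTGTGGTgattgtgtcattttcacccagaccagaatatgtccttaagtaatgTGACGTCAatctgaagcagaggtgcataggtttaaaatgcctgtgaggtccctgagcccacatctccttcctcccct
Gzmg: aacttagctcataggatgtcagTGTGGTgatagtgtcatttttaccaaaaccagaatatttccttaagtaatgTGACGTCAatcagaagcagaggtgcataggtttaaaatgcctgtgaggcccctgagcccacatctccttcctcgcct
Of the 150 positions, 120 carried the same base in all 5 copies. The Runx motif stood at the same place in all 5. The element TGACGTCA stood whole in Gzmc, Gzmf and Gzmg, whereas Gzmd differed from it by C4T and Gzme by G5A, with positions counted from 1 at its first base and the element's base given first.

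Gzmb and Gzma, whose start regions are unlike that row, were lower too, and any part of the start regions in the lower signals was not tested. For Gzmb, Gzma and Gzmn, the last below the floor in both samples, the 150 bases before the annotated start are shown, from Gzmb chr14:56262335-56262484, Gzma chr13:113100982-113101131 and Gzmn chr14:56174600-56174749, all on the minus strand, with TGTGGT or its reverse complement ACCACA and the AP-1 motif match TGAGTCA in capitals.
Gzmb: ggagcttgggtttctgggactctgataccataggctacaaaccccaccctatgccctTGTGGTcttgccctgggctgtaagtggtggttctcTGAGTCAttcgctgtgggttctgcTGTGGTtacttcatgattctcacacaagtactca
Gzma: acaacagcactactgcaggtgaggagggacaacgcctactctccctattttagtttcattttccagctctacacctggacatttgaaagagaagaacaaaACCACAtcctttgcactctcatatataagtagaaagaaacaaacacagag
Gzmn: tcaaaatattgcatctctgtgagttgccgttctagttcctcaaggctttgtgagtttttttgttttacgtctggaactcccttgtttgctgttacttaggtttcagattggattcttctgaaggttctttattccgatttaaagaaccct
Over the whole windows of 300 bases, the 10 pairs among Gzmc to Gzmg had 79.7% to 93.7% identical bases in a global alignment, the highest for Gzmd with Gzme. Gzmb shared 49% to 52.7% with these 5, Gzma 51% to 52.3% and Gzmn 52.3% to 56.3%. All 81 pairs outside the row of copies, with Prf1, Srgn, Gzmk and Gzmm included, lay between 48.7% and 56.3%.

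**Figure D4:**
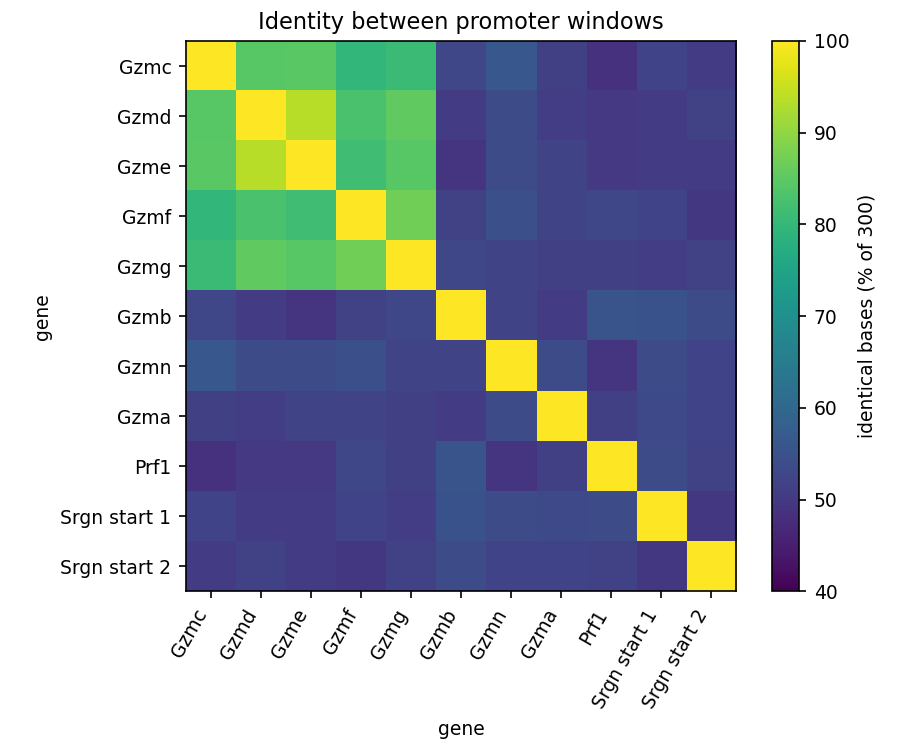
Identical bases, as a percent of the 300 bases of each RefSeq promoter window, for each pair of genes, with 2 annotated starts for Srgn. The 5 copies Gzmc to Gzmg form 1 block at 79.7% to 93.7%, and Gzmb, Gzma and Gzmn stand outside it.

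Motifs were searched on both strands of the windows, and none of the 6 contains another. The Runx motif TGTGGT was found in 9 of the 10 windows of these genes, among them all 7 granzymes and Prf1, against 16.8% of all 32851 windows in the table. The cAMP response element TGACGTCA was found in 3 of 10, against 1.79% of all windows, and the T-box motif AGGTGTGA in 0 of 10, against 1.28%. The AP-1 motif TGANTCA was found in 1 of 10, for Gzmb, against 7.81% of all windows. The STAT motif TTCNNNGAA was likewise found for Gzmb alone, against 8.30% of all windows, and the TATA box TATAAA for Srgn alone, against 13.6%. The 5 copies share their letters by descent and count as little more than 1 case, and a match of letters is no evidence of binding.

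Most NK receptor genes were too weak in the control sample to show a fall of the granzymes' size. A 2-fold lower value could be called only from a control signal of at least 86, or 2 times the floor. Of 24 NK receptor and surface marker genes on the array, 8 were measured and 2 of these, Fcgr3 and Ctsw, had such a control signal. None of the 8 was at least 2-fold lower or higher, as against 0.725% lower and 0.796% higher among all 8413 measured genes, but for 6 of them a count of 0 lower was fixed by the floor. All 8 had a log2 ratio above 0, with a median of 0.23, against 0.02 over all measured genes. Fcgr3, an activating antibody receptor also made by macrophages, read 142 in the Cbs null sample and 114 in the control sample. Klra8, the Ly49H receptor, read 129 in the Cbs null sample and 78.1 in the control sample (log2 ratio 0.73), on a probe set that may bind related Ly49 genes. The granule-associated protease gene Ctsw read 106 in the Cbs null sample and 90.5 in the control sample, and Nkg7, a granule membrane protein, 49.2 and 46.1 (both chosen with their values known). Klrk1 was measured only through the Cbs null sample, at 61.8 against 40.7 in the control sample. The other 16, among them Ncr1 at 35.4 and 21.8 and Il2rb at 40.1 and 38.7 in the Cbs null and control samples, were under the floor in both in the probe set used, so that a fall in them could not have been seen. A second probe set of Il2rb read 43.1 in the Cbs null sample, only just above the floor, and 22.7 in the control sample. In whole tissue, fewer cells of a type and less RNA per cell cannot be told apart.

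Among 9 measured transcription factor genes of the NK lineage, 7 with a control signal that could have shown a 2-fold fall, none differed by 2-fold and the median log2 ratio was 0.00. Id2 read 769 in the Cbs null sample and 562 in the control sample, and Zeb2 506 and 542. Eomes, a T-box factor of the NK lineage picked out after its value was seen, read 61.6 in the Cbs null sample and 61.4 in the control sample, too weak to show one. Among 12 measured genes of interleukin-15 signalling, the median was 0.14 and none differed by 2-fold, 10 of them bright enough in the control sample to have been called lower, with Mcl1 at 1619 and 1421 and Stat3 at 1082 and 1016 in the Cbs null and control samples. The Il15 gene itself, also picked out afterwards, was the lowest of them, with 78.6 in the Cbs null sample and 109 in the control sample (log2 ratio -0.47).

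The measured genes of the machinery that makes, fills and releases lytic granules, which many cells share, were at like levels. Of 21 genes on the array 18 were measured, all bright enough in the control sample to be called lower. Of the 18, 0 were at least 2-fold lower and 0 higher, against 0.725% and 0.796% of all measured genes. Their median log2 ratio was -0.03. The other 3, Rab27a, Cst7 and Chst11, were under the floor in both samples, so a fall in them could not have been seen. Calr, a chaperone that also binds perforin, read 3015 in the Cbs null sample and 3788 in the control sample, and Ctsb, a lysosomal protease, 4938 and 4493. Ctsc, the protease that activates granzymes, was picked out after its value was seen and read 796 in the Cbs null sample and 679 in the control sample.

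Among 14 measured inhibitors and substrates of granzymes, with a median of -0.02, 10 were bright enough in the control sample to be called lower. Of the 14, 1 was at least 2-fold lower and 0 higher, against 0.725% and 0.796% of all measured genes. That one was Serpinb6b, a serpin known in the mouse as an inhibitor of granzyme A, at 121 in the Cbs null sample and 365 in the control sample, 3.02-fold lower. Serpinb9, an inhibitor of granzyme B, was picked out afterwards and read 169 in the Cbs null sample and 275 in the control sample (log2 ratio -0.70). The substrate genes Set, at 1772 and 1754, and Parp1, at 356 and 338 in the Cbs null and control samples, were likewise picked out and differed little.

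Of 9 measured factors that uterine NK cells are known to secrete, 5 were bright enough in the control sample to be called lower, none differed by 2-fold and the median was 0.02. Ptn, the growth factor pleiotrophin, read 1740 in the Cbs null sample and 2515 in the control sample, and Vegfa 239 and 264. Of 9 measured chemokines and receptors that guide NK cells, 2 were bright enough to be called lower. Of the 9, 1 was at least 2-fold lower and 0 higher, against 0.725% and 0.796% of all measured genes. That one, Cxcl14, read 261 in the Cbs null sample and 1145 in the control sample, 4.38-fold lower. The median of the chemokine and receptor list was -0.15. Cxcl12, picked out after its value was seen, read 1988 in the Cbs null sample and 1436 in the control sample.

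**Figure D5:**
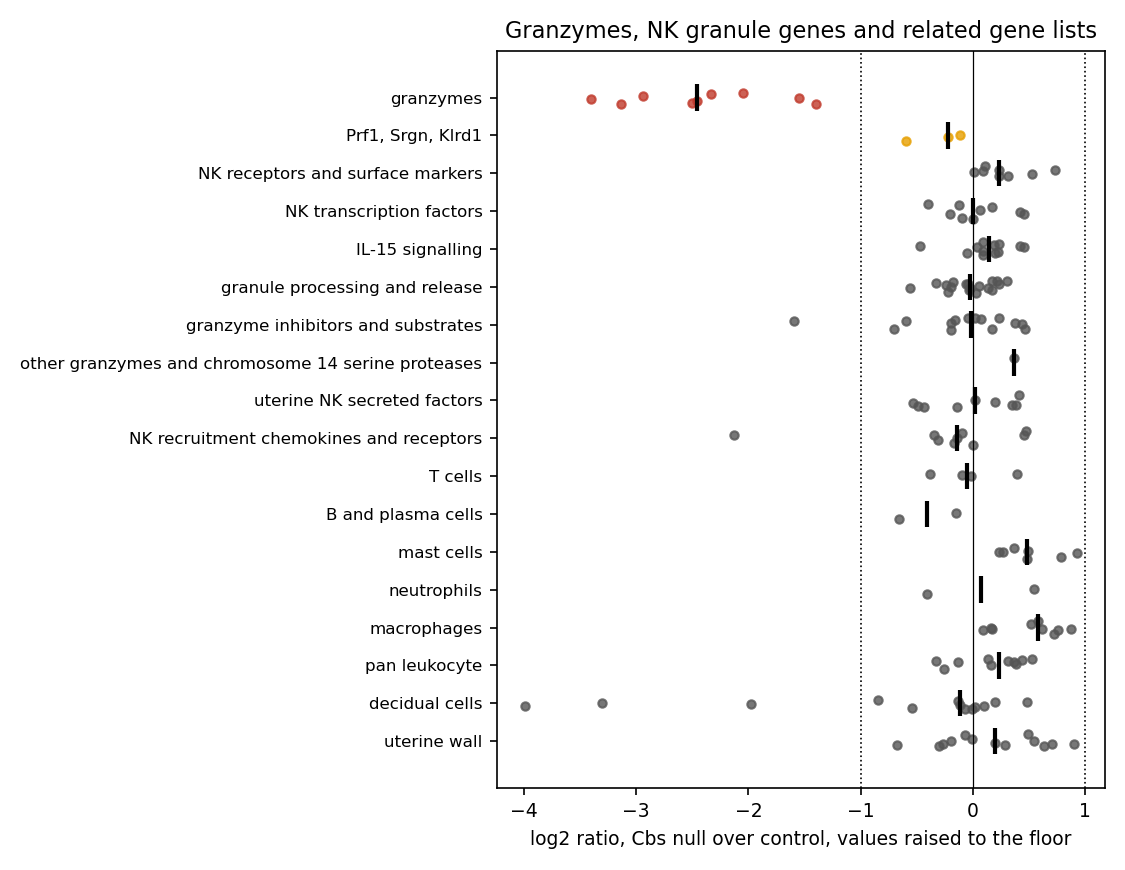
Log2 ratio of Cbs null over control for each measured granzyme probe set (red), probe set of Prf1, Srgn and Klrd1 (orange) and list gene (grey), with values raised to the floor, list medians as black bars and dotted lines at 2-fold. The granzymes span -3.41 to -1.40, whereas the 8 measured NK receptor genes lie between 0.01 and 0.73, 6 of them with control signals under 2 times the floor that could not show a 2-fold fall.

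Markers of other cells that make granzymes or share the tissue gave these values. T cell markers were weak, with 4 of 14 measured, none bright enough in the control sample to be called lower, and a summed signal of 247 in the Cbs null sample and 307 in the control sample, and Cd3d, Cd3e, Cd3g, Cd8a and Cd8b1 were under the floor in both. Lat read 33.1 in the Cbs null sample and 56 in the control sample, and Il7r 34.2 and 43.5. Zap70, added with its value known, read 56.5 in the Cbs null sample and 23.7 in the control sample. Mast cell markers summed to 1155 in the Cbs null sample and 725 in the control sample, with a log2 ratio above 0 for all 7 measured of 10. Most of both sums came from Hdc, at 315 and 165, and Gata2, at 436 and 312 in the Cbs null and control samples. Cpa3, Tpsb2 and Tpsab1 were above the floor through the Cbs null sample alone, and Fcer1a, Ms4a2 and Mcpt4 were under the floor in both. Macrophage markers summed to 3854 in the Cbs null sample and 2553 in the control sample, with a log2 ratio above 0 for all 9 measured of 11, a median of 0.58 and Csf1r at 1026 and 669 and Lyz2 at 1272 and 771. Pan-leukocyte genes had a median of 0.24 over 10 measured of 13, with Ptprc, the gene of CD45, at 389 in the Cbs null sample and 348 in the control sample and Cd52 at 462 and 321. The part of cell composition in the granzyme result was not tested.

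Decidual cell markers were in part lower too. Their summed signal was 5602 in the Cbs null sample and 7525 in the control sample, and of 13 measured of 16, 3 were at least 2-fold lower and 0 higher, against 0.725% and 0.796% of all measured genes, with a median of -0.12. Besides Tdo2 and Prl8a2, Fst, an activin antagonist, read 256 in the Cbs null sample and 1012 in the control sample. Bmp2 at 158 and 156 and Hoxa10 at 1359 and 1188 in the Cbs null and control samples were named with their values known. Whether the dissected pieces held unequal amounts of tissue from implantation sites was not tested. The B and plasma cell list rested on 2 measured genes, Jchain at 1261 in the Cbs null sample and 1996 in the control sample and Blk at 18.3 and 47.8. Of the neutrophil list, 2 were measured, S100a8 at 62.8 in the Cbs null sample and 18.6 in the control sample and Mmp9 at 42.6 and 57. Of the other serine proteases of the granzyme family, Cma1, a mast cell chymase, was measured alone, at 58.2 in the Cbs null sample and 45.1 in the control sample.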

How the data were processed

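Biotin-labelled cRNA from 2 microg of total RNA was hybridised to 1 array per group, per the labels' protocols. The deposited values are linear intensities, 1 for each probe set on each array, and the submitters' processing notes name GCOS 1.4. How signals were summarised and scaled is not given in the sources used here. Both arrays were on one scale, since the 2% trimmed means were 200.07 in the Cbs null sample and 200.08 in the control sample, and values were used as deposited, which makes each difference one relative to the other transcripts.

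Of 22690 probe sets, 64 array controls were left out. The platform annotation gave 1 gene symbol for 20380 of the rest, several for 691 and none for 1555, and gene identifiers of 20351 of the 20380 matched the RefSeq gene table (GRCm38.p6), used for names and gene order. Values under the floor of 43.0 were raised to it, and log2 ratios are Cbs null over control. A gene outside the 10 was represented by its brightest probe set of 1 symbol. The number of arrays limits the precision, and samples are grouped by the genotype label.

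Every probe set of the 10 genes is named. Of each of 16 gene lists (225 of 257 entries on the array), up to 4 members at least 2-fold apart are named, or else the 2 of highest mean log2 signal, as are Cbs and the 6 genes of highest control signal that shared the granzyme pattern. The genes, lists and motifs were chosen with earlier results of these data known, and some genes stand on 2 lists. Alternatives were a floor at the 20th or the 60th percentile, a pseudocount of 16 instead of it, median centring and quantile normalization. Others were thresholds of 1.5-fold and 3-fold, leaving out probe sets by suffix (_s, _x, _a, _f or _i) and averaging a gene's probe sets. Promoter windows were aligned with Biopython 1.88 (match 1, mismatch -1, gap opening -3, gap extension -0.5), and other values were computed with Python 3.11.15, pandas 2.3.3, numpy 2.4.6 and scipy 1.17.1.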

Additional observations from a re-analysis of the deposited data

How the results depend on the processing

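Of the 13 probe sets, 12 were measured and 9 of these were at least 2-fold lower. The count was 9 of 12 with the pseudocount, after median centring and after quantile normalization, and 9 of 13 with a 20th percentile floor. Of 12, it was 10 at 1.5-fold and 7 at 3-fold. Without probe sets of an _s, _x, _a, _f or _i suffix it was 6 of 8. The probe set shared by Gzme and Gzmd has no such suffix and stayed among the 6. With those suffixes left out, the 7 genes with every measured probe set at least 2-fold lower became 5. Gzma and Gzme dropped out because their only own probe sets, an _a_at and an _x_at each annotated to 1 symbol, were removed. The probe set count was 4 of 10 measured for a 60th percentile floor of 119.9, where those 7 genes became 2. A higher floor shortens every bound by construction, and Gzma was then not measured. Over these settings 40 of 44 granzyme log2 ratios were at or below -1, from -5.39 to -0.07 and none above 0, while the 15 ratios of Prf1, Srgn and Klrd1 lay between -0.61 and -0.10. The counts over all 14061 measured probe sets were 99 lower and 92 higher, with 486 and 502 at 1.5-fold and 31 and 16 at 3-fold. They were 387 and 436 of 19009 measured at the 20th percentile floor, and 43 and 41 of 9479 at the 60th. The NK receptor median of 0.23 ranged between 0.17 and 0.31, and of 87 medians of other lists 10 moved by more than the technical SD, all on lists with at most 9 measured genes in the values reported. No paired analysis was possible because each group has 1 array. The cause of the difference between samples was not tested, and no depth measure is given with array signals.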
